A study of Mus musculus with 6 samples.

Results

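RNA levels of 8 genes of the complement system were examined in macrophages sorted from mouse tumours: the 3 chains of C1q (C1qa, C1qb and C1qc), the central component C3, factor B (Cfb), properdin (Cfp), and the receptors for the cleavage fragments C3a and C5a (C3ar1 and C5ar1). They were chosen by name and are 8 of the 21878 genes in the deposited count table. All 8 had enough reads to be tested, among 12136 tested genes. The KO group was 3 libraries of tumour-associated macrophages from mice with floxed Trmt61a alleles and LysM-Cre (Trmt61af/fLysmCre), and the WT group was 3 libraries from mice with the same floxed alleles and no Cre named (Trmt61af/f). Both groups had received MC38 cells, a mouse colon carcinoma line, 14 days before sorting. LysM-Cre is expressed from the lysozyme M locus of myeloid cells, so neutrophils and other myeloid cells of these mice can carry the deletion as well. Neither the sorting gate nor the age and sex of the mice is stated in the labels. Nor is it stated that each library came from its own mouse, so p-values measure the spread between libraries, which may be technical in part.

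Trmt61a encodes the catalytic subunit of the tRNA m1A methyltransferase. Its RNA was counted 41, 33 and 50 times in the KO libraries and 157, 138 and 148 times in the WT libraries, so every library matched its label. Library totals were 18839026 to 20313597 counts. The macrophage genes Adgre1 (F4/80), Csf1r (the CSF-1 receptor) and Cd68 were at 498 ± 45.9, 1375 ± 127 and 561 ± 32.4 CPM in KO and at 534 ± 60.4, 1476 ± 89.1 and 547 ± 18.5 CPM in WT (SD, n = 3 each). CPM values here rest on library totals scaled by TMM, a factor that balances RNA composition between libraries. In sorted bulk RNA, fewer cells with a transcript and less of it per cell cannot be told apart.

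Complement is a cascade of plasma proteins that tags targets for uptake and calls in leukocytes. C1q, built from A, B and C chains, recognises bound antibody and dying cells and starts the classical pathway through the proteases C1r and C1s. Both this pathway and the alternative pathway converge on C3. Factor B supplies the protease of the alternative C3 convertase, and properdin stabilises that enzyme. Cleavage releases C3a and C5a, which act on myeloid cells through C3ar1 and C5ar1. Macrophages are a main source of C1q, and C1q expression is a common mark of macrophages in tumours.

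No complement gene passed the test across all genes. With edgeR's quasi-likelihood test and Benjamini-Hochberg adjustment, 0 of the 8 were called at an adjusted p under 0.05, against 0.0165% of all tested genes, which is 2 genes, both lower in KO. DESeq2 called 0 of the 8 and 29 genes in all. An unadjusted p under 0.05 was reached by 2 of the 8, C1qa and C1qc, both with lower KO levels, and by 3.06% of all tested genes in that direction. The log2 fold change of KO over WT was negative for 7 of 8, with a median of -0.18, where 50.2% of all tested genes were negative and their median was -0.001. For C1qa, C1qb and C1qc every KO library lay below every WT library, which was so for 6.30% of all tested genes. For Cfp every KO library lay above every WT library after TMM scaling, which was so for 6.11%. The other 4 genes overlapped between the groups. The C1q genes share a locus and a profile, so their 3 results are not separate pieces of evidence.

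**Figure D1:**
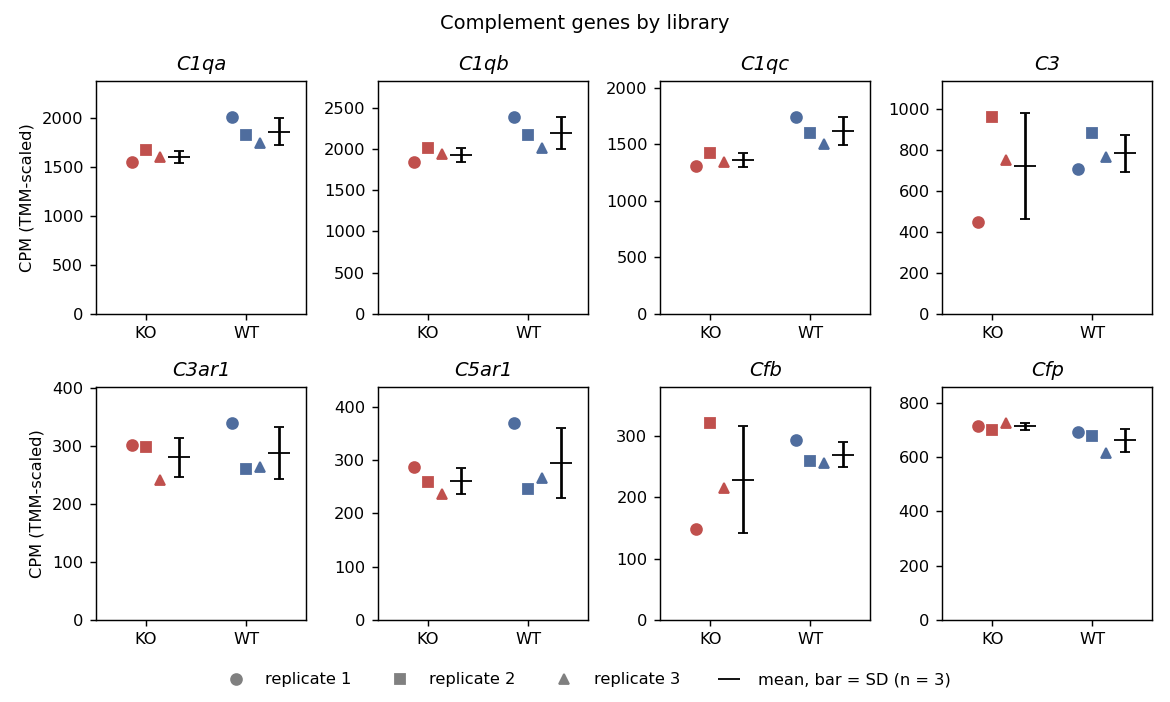
TMM-scaled CPM of the 8 complement genes in each library, KO left of WT, with the mean and SD of 3 libraries in black. The C1q chains are lower in every KO library than in every WT library, Cfp is slightly higher in every KO library, and C3 and Cfb spread most in KO, from 447 to 964 and from 149 to 322 CPM.

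The C1q genes lie side by side on the minus strand of chromosome 4 (GRCm38, the assembly that mm10 names): C1qb at 136880129 to 136886187, C1qc at 136889804 to 136893065 and C1qa at 136895917 to 136898803. All are protein-coding, none overlaps another annotated gene in GENCODE M21, and the cluster spans 18.7 kb with gaps of 3.62 and 2.85 kb. Since the chains shared a profile, the promoter windows of C1qb and C1qc are shown (RefSeq, GRCm38.p6, minus strand, from upstream of the start into the first transcribed bases). They lie at chr4:136886151-136886450 for C1qb and chr4:136892865-136893164 for C1qc. Capitals mark 6-base matches to the core of the PU.1 site, GAGGAA or its reverse complement. PU.1 is a transcription factor of macrophages and other myeloid cells.

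C1qb: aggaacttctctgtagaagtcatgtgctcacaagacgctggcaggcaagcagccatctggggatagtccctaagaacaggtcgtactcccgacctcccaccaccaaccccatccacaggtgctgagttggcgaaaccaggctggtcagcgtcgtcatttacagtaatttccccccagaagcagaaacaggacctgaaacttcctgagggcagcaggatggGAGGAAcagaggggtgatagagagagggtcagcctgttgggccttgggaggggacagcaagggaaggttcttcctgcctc
C1qc: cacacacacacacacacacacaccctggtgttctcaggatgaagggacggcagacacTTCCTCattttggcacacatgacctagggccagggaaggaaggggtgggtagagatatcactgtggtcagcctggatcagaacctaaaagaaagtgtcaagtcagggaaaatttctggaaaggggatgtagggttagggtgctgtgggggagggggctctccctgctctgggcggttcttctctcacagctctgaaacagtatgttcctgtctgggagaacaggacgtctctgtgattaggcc

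The C1qb window held GAGGAA at 30 bases before the start. The C1qc window held the PU.1 core at 193 bases before the start, on the opposite strand. Of 32851 promoter windows of this length, 28.3% held the PU.1 core on either strand. Windows of C3, C3ar1, C5ar1 and Cfp were searched in the same way, so that 6 of the 8 genes had a window (all except C1qa and Cfb). The PU.1 core matched in Cfp, at 2 places, and not in the windows of C3, C3ar1 and C5ar1. An interferon-stimulated response element, searched as GAAANNGAA, matched in C5ar1 alone of these 6 (TTCCTTTTC, 66 bases before the start, opposite strand), as in 8.56% of all windows. A STAT site, TTCNNNGAA, and a kappaB site, GGGANTTTC, matched in none of the 6 windows, and in 8.3% and 1.11% of all windows. The motifs were searched on both strands, and a match is a description of letters and not a measured site. Distances are counted from the RefSeq start. The GENCODE M21 loci of C1qc and C5ar1 begin inside their windows but upstream of that start, at 136893065 and 16259540. The distances for these genes therefore depend on the annotation.

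C1qa, the A chain, had 1543, 1665 and 1597 CPM in KO replicates 1, 2 and 3 and 2011, 1819 and 1738 CPM in WT replicates 1, 2 and 3. The highest KO library was below the lowest WT library. The ratio of KO to WT was 0.863 (log2 -0.21, SE 0.0808, 95% interval -0.393 to -0.032, unadjusted p = 0.0253, edgeR adjusted p = 0.703). C1qb, the B chain, had 1846, 2010 and 1940 CPM in KO and 2398, 2176 and 2016 CPM in WT. KO replicate 2 and WT replicate 3 were nearly equal, and the groups were otherwise apart. Its log2 value was -0.19 (SE 0.0853, 95% interval -0.376 to 0.005, unadjusted p = 0.0551, edgeR adjusted p = 0.717). C1qc, the C chain, had 1308, 1426 and 1343 CPM in KO and 1746, 1599 and 1503 CPM in WT, again without overlap. It had the lowest p of the 8 genes (log2 -0.25, SE 0.0815, 95% interval -0.431 to -0.068, unadjusted p = 0.0121, edgeR adjusted p = 0.701, rank 200 of the 12136 genes).

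Summed over the chains, C1q RNA was 4697, 5100 and 4881 CPM in KO and 6155, 5594 and 5258 CPM in WT. It took 0.48 to 0.501% of all counted reads in KO and 0.534 to 0.615% in WT. WT replicate 1 was the highest library for every chain, and KO replicate 1 the lowest. Leaving out WT replicate 1 gave log2 values of -0.15 for C1qa, -0.12 for C1qb and -0.19 for C1qc, and 1 chain (C1qc) kept an unadjusted p under 0.05. Leaving out KO replicate 1 gave -0.19, -0.15 and -0.22, again with C1qc alone under 0.05. Without both, 0 chains were under 0.05, at log2 values of -0.13, -0.09 and -0.17.

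The chains kept nearly fixed proportions in each library. C1qa counts were 0.836, 0.8283 and 0.8233 of C1qb counts in KO and 0.8385, 0.8361 and 0.862 in WT. C1qc counts were 0.7085, 0.7097 and 0.6925 of C1qb counts in KO and 0.7278, 0.7349 and 0.7455 in WT, so every KO library had a lower C1qc share. On the log2 scale the C1qc to C1qb ratio was -0.507 ± 0.0199 in KO and -0.442 ± 0.0174 in WT, a difference of -0.065 (SD, n = 3 each; two-sided exact permutation p = 0.1, the smallest that 3 against 3 allows, 0.2 adjusted over 4 ratios). The C1qa to C1qb ratio differed by -0.028 (exact permutation p = 0.1, adjusted 0.2). That difference leaned on WT replicate 3 and was -0.014 without it. Within a library these ratios do not depend on how libraries are scaled.

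**Figure D2:**
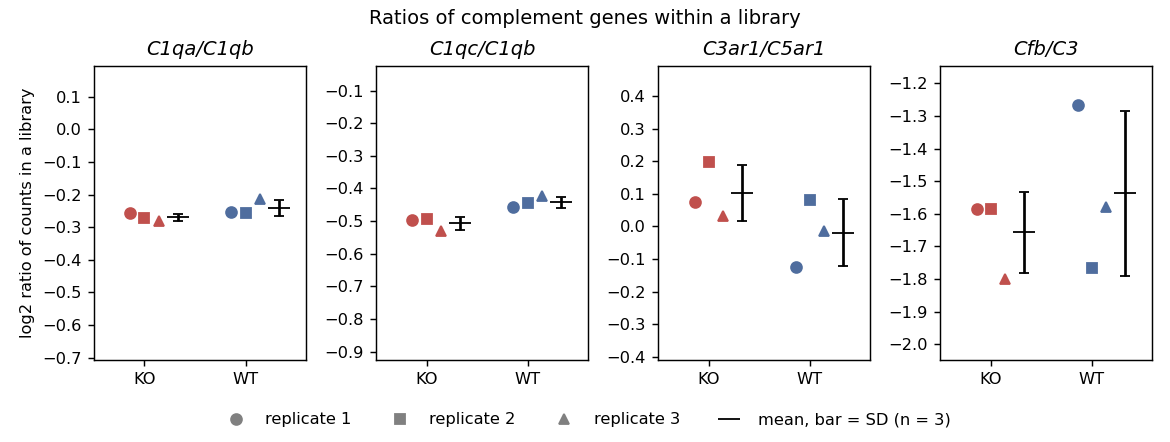
Log2 ratio of the counts of 2 complement genes within a library, KO left of WT, with mean and SD of 3 libraries in black and axes of equal span in each panel. C1qc relative to C1qb is lower in all 3 KO libraries, by 0.065 on average, while C3ar1/C5ar1 and Cfb/C3 overlap between the groups.

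Per kb of exon, C1qb and C1qa were among the most abundant RNAs of these cells. C1qb was at 1776 ± 75.4 CPM per kb in KO and 2019 ± 176 in WT, and ranked 13 of 11750 tested genes with an annotated length. C1qa was at 1540 ± 58.4 CPM per kb in KO and 1785 ± 135 in WT, rank 15. C1qc was at 704 ± 31.4 CPM per kb in KO and 837 ± 63.2 in WT, rank 38, when divided by the union of its exons (1931 bases). Divided by its longest transcript (1203 bases) it was at 1130 ± 50.5 in KO and 1343 ± 101 in WT. The order of C1qc after the other chains held with both lengths, but its distance from them depended on the length used. Of the other genes, Cfp was at 411 ± 7.69 in KO and 381 ± 23.8 CPM per kb in WT (rank 102), C3 at 140 ± 50.6 and 152 ± 17.5 (rank 330), and C5ar1, Cfb and C3ar1 followed at ranks 437, 543 and 712. C5ar1 was at 101 ± 9.75 CPM per kb in KO and 114 ± 25.8 in WT, Cfb at 81 ± 30.8 in KO and 95.5 ± 7.29 in WT, and C3ar1 at 65 ± 7.83 in KO and 66.9 ± 10.4 in WT. In KO, each neighbouring pair in the order C3, C5ar1, Cfb, C3ar1 differed by less than the larger SD of the pair. In WT this held for C5ar1 and Cfb, while C3 stood above C5ar1 and Cfb above C3ar1 by more than the larger SD.

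C3 varied more between KO libraries than between genotypes. It had 447, 964 and 753 CPM in KO and 706, 882 and 765 CPM in WT (chromosome 17, 57203970 to 57228136, minus strand). KO replicate 1 was the lowest and KO replicate 2 the highest of all 6 libraries, so the groups overlapped fully. The log2 value was -0.12 (SE 0.244, 95% interval -0.685 to 0.444, edgeR adjusted p = 0.927) and became 0.13 without KO replicate 1. The coefficient of variation was 36.1% in KO and 11.5% in WT.

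Cfb, the gene of factor B, had the same extreme libraries as C3. It had 149, 322 and 216 CPM in KO and 293, 260 and 256 CPM in WT (chromosome 17, 34856374 to 34862518, minus strand). KO replicate 1 was again the lowest and KO replicate 2 the highest, and all WT libraries lay between them. Its log2 value was -0.24 (SE 0.239, 95% interval -0.79 to 0.316, edgeR adjusted p = 0.845). It was -0.005 without KO replicate 1 and -0.56 without KO replicate 2. The Cfb to C3 ratio was -1.66 ± 0.124 in KO and -1.54 ± 0.252 in WT on the log2 scale (exact permutation p = 0.4). The protein-coding gene Gm20547 overlaps Cfb on the same strand in GENCODE M21, but the deposited table has no row of that name. Nelfe lies 0.002 kb from Cfb on the other strand. The annotation and strand setting of the counting are not known, so the Cfb level is uncertain to that extent.

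Cfp, which encodes properdin, was steady. It had 713, 700 and 727 CPM in KO and 694, 676 and 615 CPM in WT (chromosome X, 20925454 to 20931555, minus strand). After TMM scaling the lowest KO library was just above the highest WT library. On library totals alone the groups overlapped. KO replicate 2 had 13333 of 19391638 counts and WT replicate 1 had 13596 of 19622763, a larger share. The log2 value was 0.11 (SE 0.0733, 95% interval -0.056 to 0.271, edgeR adjusted p = 0.785), and 0.06 without WT replicate 3, the lowest library. Neutrophils also make properdin. The summed neutrophil markers were 132 to 182 CPM in KO and 85.5 to 120 CPM in WT, also without overlap (12 listed, 7 tested, 6 of them positive; exact permutation p = 0.1, adjusted 0.55 over 11 marker lists). Mmp9 averaged 78.9 CPM in KO and 39.5 CPM in WT, and without Mmp9 the sum was 56.6 to 101 CPM in KO and 54.7 to 72 CPM in WT, which overlapped. The part of neutrophil RNA in the Cfp values was not tested.

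C3ar1, the C3a receptor, had 301, 298 and 241 CPM in KO and 340, 260 and 264 CPM in WT (chromosome 6, 122847138 to 122856161, minus strand). WT replicate 1 was highest and KO replicate 3 lowest, with the rest interleaved. The log2 value was -0.04 (SE 0.124, 95% interval -0.318 to 0.239, edgeR adjusted p = 0.951). It was 0.097 without WT replicate 1 and 0.061 without KO replicate 3, so its sign depended on single libraries. C5ar1, the main C5a receptor, had 286, 259 and 236 CPM in KO and 370, 246 and 267 CPM in WT (chromosome 7, 16246743 to 16259540, minus strand). WT replicate 1 stood above the other 5 libraries, which overlapped. The log2 value was -0.18 (SE 0.15, 95% interval -0.521 to 0.169, edgeR adjusted p = 0.819) and 0.024 without WT replicate 1. The C3ar1 to C5ar1 ratio was 0.102 ± 0.0856 in KO and -0.019 ± 0.102 in WT on the log2 scale, a difference of 0.121 within the overlap of the groups (exact permutation p = 0.3).

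**Figure D3:**
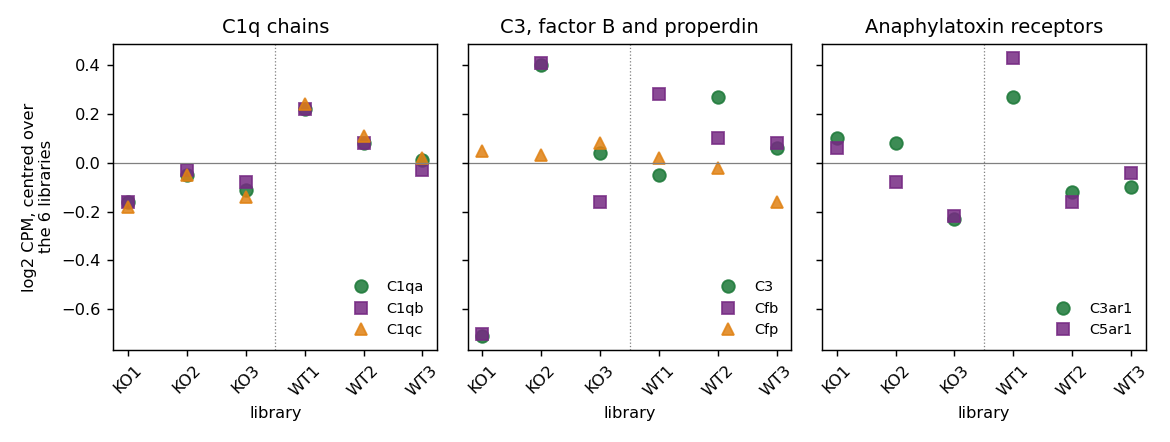
Log2 CPM of the complement genes in each library, centred on the mean of the 6 libraries. The C1q chains coincide in every library and are highest in WT replicate 1 (0.22 to 0.24), C3 and Cfb are both lowest in KO replicate 1 (-0.71 and -0.70), and C3ar1 and C5ar1 share their highest value in WT replicate 1 (0.27 and 0.43).

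The 8 genes were also compared by their profiles across the 6 libraries. Likeness was measured as the root mean square distance between log2 CPM profiles centred over the 6 libraries, a description that shares library and scaling between all genes. The closest of the 28 pairs were the C1q chains among themselves, at 0.0209 (C1qa with C1qb), 0.0214 (C1qa with C1qc) and 0.036 (C1qb with C1qc). The receptors came next at 0.0981. C3 and Cfb stood 0.173 apart, at rank 14 of the 28 pairs, but each had a range of 1.11 log2 units. C3 and C5ar1 were the farthest pair, at 0.469.

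The nearest other genes were looked for among 9615 with a mean of at least 5 CPM. For the mean C1q profile they were Dck, the deoxycytidine kinase (distance 0.0225), Il1rn, the interleukin 1 receptor antagonist (0.0294), and Ccdc25 (0.0315). Dck was nearer to C1qa (0.0192) than either other chain was. Il1rn was nearer to C1qc (0.0267) than C1qb was (0.036). Distances this small were thus not particular to the chains. Il1rn had 1080, 1234 and 1175 CPM in KO and 1501, 1351 and 1288 CPM in WT, again without overlap, and did not pass (log2 -0.25, edgeR adjusted p = 0.701). For C3 the nearest genes were Cd74, the MHC class II invariant chain (0.0693), and the class II chains H2-Aa (0.0857) and H2-Ab1 (0.097). Cd74 had 2813, 6230 and 5372 CPM in KO and 4999, 5720 and 5249 CPM in WT, with KO replicate 1 lowest and KO replicate 2 highest, as for C3. For Cfb the nearest was Nos2, the inducible nitric oxide synthase (0.0716), at 411, 768 and 553 CPM in KO and 723, 626 and 625 CPM in WT. The nearest to C5ar1 was P2ry6, a nucleotide receptor (0.0513), to C3ar1 Slc35f6 (0.0482), and to Cfp Dnase2a, a lysosomal nuclease (0.0175).

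The summed markers of other cell types were set beside C3 and Cfb. Fibroblast markers summed to 245, 271 and 344 CPM in KO and 240, 379 and 265 CPM in WT, and markers of epithelial or tumour cells to 115, 137 and 119 CPM in KO and 79.1, 144 and 130 CPM in WT. Dendritic cell markers summed to 23.8, 48.2 and 28.4 CPM in KO and 28.8, 20.6 and 35 CPM in WT. KO replicate 2 was thus highest for dendritic cell markers, as for C3 and Cfb, and KO replicate 1 was not the lowest library for these 3 sums. T and NK cell markers summed to 11.7, 39.3 and 16.7 CPM in KO and 12.3, 14.8 and 19.2 CPM in WT, and monocyte genes to 489, 566 and 655 CPM in KO and 501, 643 and 562 CPM in WT. KO replicate 1 was the lowest of the 6 libraries for both, and KO replicate 2 the highest for T and NK cell markers, as for C3 and Cfb. Of the markers listed, 7 of 9 fibroblast, 2 of 8 epithelial, 8 of 10 dendritic cell, 8 of 10 T and NK cell and 8 of 8 monocyte genes were tested, and Krt20 had no read. Their part in the C3 and Cfb values was not tested.

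Other genes of macrophages that carry much C1q overlapped between the groups in their sum. The 10 listed genes, among them Apoe, Trem2 and Mrc1, summed to 6514 to 8408 CPM in KO and 7028 to 7968 CPM in WT (exact permutation p = 0.8), and 7 of 10 were negative with a median log2 value of -0.057. Selenop, listed under its older symbol Sepp1, was lower in every KO library (log2 -0.2, SE 0.0967, edgeR unadjusted p = 0.0711). Macrophage identity genes summed to 11366 to 11699 CPM in KO and 14386 to 17701 CPM in WT, a gap carried by Lyz2, the gene of the Cre locus. Without Lyz2 they summed to 6067 to 6788 CPM in KO and 6007 to 6372 CPM in WT.

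Of the wider complement system, 57 genes were listed, 31 were tested and 22 of these were negative, with a median of -0.115. Of these 31, edgeR and DESeq2 called 0, and 3 had an edgeR unadjusted p under 0.05 (C1qa, C1qc and Susd4, each lower in KO). Without the 8 genes described so far, 15 of 23 genes had a negative log2 value, their median was -0.039, and Susd4 was the single gene below that p. In the classical pathway all 9 tested genes were negative (median -0.213), and 4 of them did not overlap between groups: the C1q chains and C2. Over all tested genes 50.2% were negative, and 6.30% had every KO library below every WT library. An edgeR unadjusted p under 0.05 with lower KO levels was reached by 3.06%. The C1q chains share a locus and a profile, so they do not count as separate genes here. C2, the protease partner of C4, was scarce, with 12, 15 and 15 counts in KO and 23, 17 and 16 counts in WT (log2 -0.39, SE 0.361).

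C1ra, the gene of the C1r protease, had 24.4, 42.1 and 40 CPM in KO and 40.3, 40.2 and 42.8 CPM in WT. C4b, a component cleaved by the C1 proteases, had 24, 58.8 and 75.8 CPM in KO and 86.9, 57.7 and 56.8 CPM in WT. KO replicate 1 was the lowest library for both, as for C3 and Cfb, and also for C1s1 (4.1 CPM, against 8.33 and 10.2 in the other KO libraries and 6.63 to 10 in WT). The log2 values were -0.21 for C1ra (SE 0.183), -0.34 for C4b (SE 0.381) and -0.04 for C1s1 (SE 0.32), and all missed the threshold (edgeR adjusted p of 0.822, 0.856 and 0.981). C4a and C4b are near-identical copies whose reads may be divided between them, so their values are uncertain. C1rl, a C1r-like protease, was at 16.1 ± 2.05 CPM in KO and 18 ± 0.762 CPM in WT (SD, n = 3 each).

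**Figure D4:**
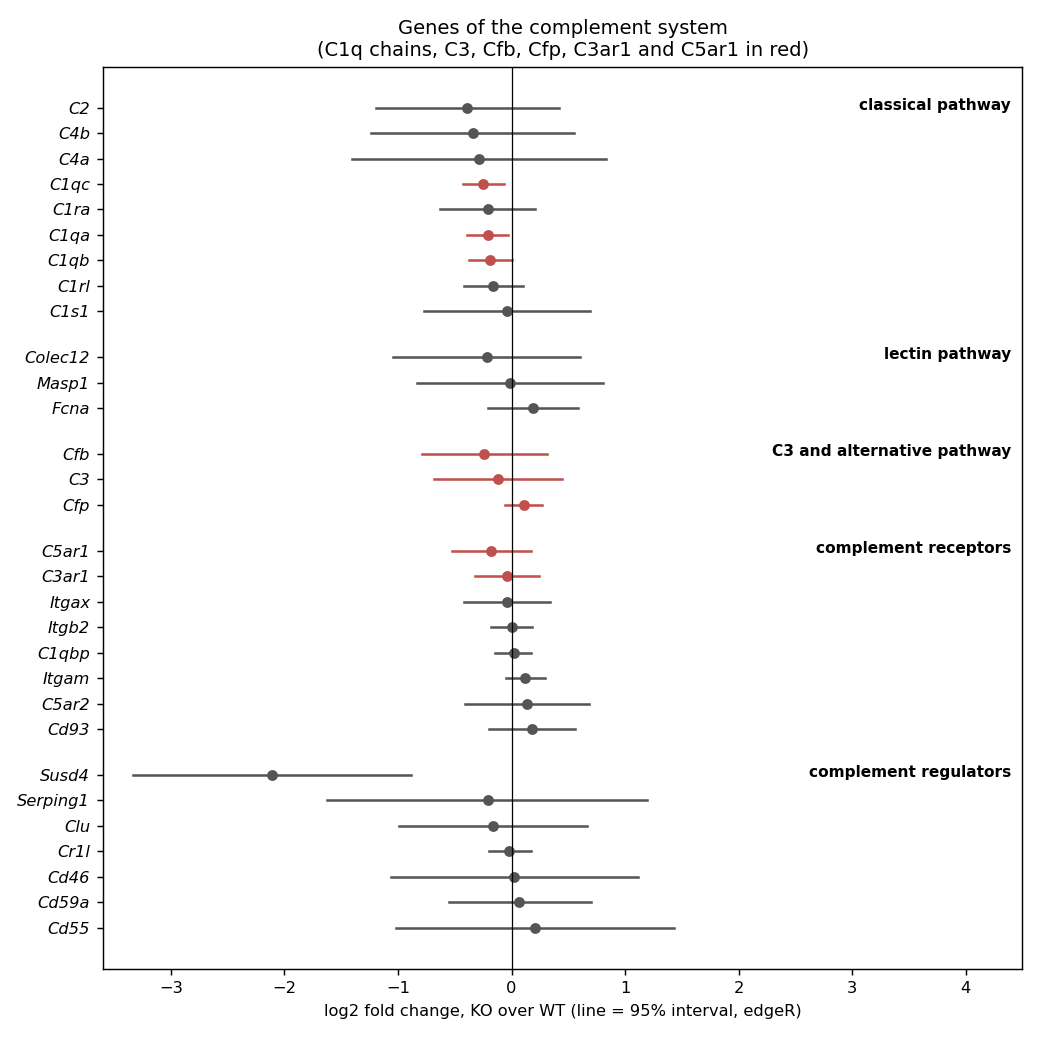
Log2 fold change of KO over WT for tested genes of the complement lists, with 95% intervals from edgeR. All 9 tested classical pathway genes lie below 0, where 50.2% of all tested genes were negative, and the receptors lie on both sides of 0. Within the classical pathway only the intervals of C1qa and C1qc lie wholly below 0. The interval of Susd4, a gene with 2 to 22 counts per library, is the farthest from 0.

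For complement receptors, 4 of 8 tested genes were negative and 4 positive, with a median of 0.007. Itgam and Itgb2 encode the chains of complement receptor CR3, which binds a C3 fragment. Itgam had 2492, 2291 and 2339 CPM in KO and 2146, 2318 and 2088 CPM in WT (log2 0.12, SE 0.0777), and Itgb2 was at 1458 ± 106 CPM in KO and 1459 ± 57.6 CPM in WT (SD, n = 3 each). Cd93, a surface glycoprotein first described as a C1q receptor, was at 461 ± 96.4 CPM in KO and 407 ± 69 CPM in WT (log2 0.18, SE 0.164). C5ar2, the second C5a receptor, lies 2.59 kb from C5ar1 and was at 6.7 ± 1.98 CPM in KO and 6.08 ± 1.21 CPM in WT. Vsig4, a receptor of resident macrophages for C3 fragments, was at or near 0, with 9, 0 and 0 counts in KO and 1, 3 and 1 counts in WT.

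Of 16 listed regulators, 8 were tested, and 5 of these were negative and 3 positive. Cr1l (Crry), a membrane inhibitor of C3 convertases in mice, was at 60.4 ± 5.37 CPM in KO and 61.1 ± 2.42 CPM in WT. The regulator with the smallest p was Susd4, with 2, 7 and 3 counts in KO and 12, 22 and 20 counts in WT (log2 -2.11, SE 0.547, unadjusted p = 0.00324, edgeR adjusted p = 0.694). Its groups did not overlap, at very few reads. The lectin pathway had 3 of 9 genes tested, led by the ficolin gene Fcna at 33.7 ± 8.27 CPM in KO and 29.5 ± 3.91 CPM in WT.

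Several parts of the cascade had few reads or none. None of the 7 terminal pathway genes had enough reads to be tested: C7, C8a and C8b had no read in any library, which allows up to 0.148 to 0.157 CPM per library (3 counts, counting error only), and Hc, the gene of C5, had 0 to 2 counts. C8g had 3, 3 and 11 counts in KO and 1, 5 and 5 counts in WT, C6 had 1, 1 and 11 counts in KO and 4, 3 and 3 counts in WT, and C9 had a single count, in WT replicate 2. Cfd, the factor D protease that activates factor B, had 0 counts in each KO library and 3, 1 and 0 counts in WT. Across all lists, 12 of 57 genes had no read.

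The genes next to each complement locus were set beside it. Beyond the C1q cluster lay Ephb2, 44.1 kb below C1qb, with a log2 value of 0.19 (SE 0.185), and Epha8, 30.6 kb above C1qa, with 0.25 (SE 0.581), both positive where the C1q chains were negative. The neighbours of C3 were Tnfsf14 (log2 0.17, SE 0.122) and Gpr108 (-0.04, SE 0.0783), those of C3ar1 were Foxj2 (0.07, SE 0.0863) and Necap1 (0.09, SE 0.117), and those of Cfp were Syn1 (-0.01, SE 0.141) and Elk1 (-0.04, SE 0.0852). Nelfe on one side of Cfb had -0.15 (SE 0.0793). C2, 0.086 kb away on the other side, had -0.39 (SE 0.361) at 12 to 23 counts per library. For both, every KO library lay below every WT library, as for 6.30% of all tested genes. The neighbours of C5ar1 were C5ar2 (0.14, SE 0.245) and Inafm1 (0.07, SE 0.154). None of these neighbours passed or had an unadjusted p under 0.05.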

How the data were processed

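RNA of sorted tumour-associated macrophages was sequenced in 6 libraries made with a TruSeq stranded mRNA kit, per the labels. The submitters' processing notes list Trimmomatic, HISAT2, Cufflinks and HTSeq and the mm10 build, with no version of any tool. Raw counts per gene were deposited. Neither the annotation nor the strand setting of the counting is given in the sources used here.

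The fit across all genes used edgeR 4.0.16 in R 4.3.3: filterByExpr (minimum count 10, minimum total 15; 12136 genes and 99.962% of reads kept), TMM factors, and a robust quasi-likelihood model with genotype as its only term, adjusted by Benjamini-Hochberg over all tested genes. Standard errors are the log2 value divided by the root of its F statistic. Intervals are at 95%. Two-sided exact permutation tests served for ratios and marker sums. Loci and exon lengths came from GENCODE M21 (GRCm38; 94.3% of symbols matched), promoter windows from RefSeq. Protein sequences were not used here, and some genes of the lists and a motif are not reported here. The fit was also run on simulated counts with known changes, all larger than those estimated for the 8 genes. That run cannot show how well changes of the size seen here are detected. Alternatives were other scalings and filters, DESeq2 1.42.0, limma-voom 3.58.1 both plain and with quality weights, non-robust edgeR, a block for replicate number, each library left out, and, chosen after seeing the data, WT replicate 1 and KO replicate 1 left out together.

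The rule for named genes took the 8 genes, up to 4 tested genes with the smallest p from each complement list, the nearest tested gene on each side of a locus, the 3 genes nearest in profile, and Trmt61a. A few genes outside it (listed markers, C4a, C1s1, Itgb2, Cr1l, Cfd, Hc, C6, C7, C8a, C8b, C8g, C9, Vsig4) are named after their values were seen. The genes and lists were chosen with earlier results of these data known.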

Additional observations from a re-analysis of the deposited data

How the results depend on the processing

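No alternative called any of the 8 complement genes. C1qa, C1qb, C1qc and Cfp had the same direction in all 18 alternatives, with log2 values of -0.26 to -0.15, -0.24 to -0.12, -0.30 to -0.19 and 0.06 to 0.14 when a library was left out. Over the same omissions C3 ranged from -0.39 to 0.13, C3ar1 from -0.10 to 0.097, C5ar1 from -0.28 to 0.024, Cfb from -0.56 to -0.005 and the Cfb to C3 ratio from -0.235 to 0.015. With quality weights C3ar1 was 0.032. Without WT replicate 1 and KO replicate 1, C3 was 0.056, C3ar1 0.036 and Cfb 0.055, so 4 of 8 genes were negative (5 to 7 with a single library left out) and 0 C1q chains had an unadjusted p under 0.05. That count of chains was 1 to 3 with a library left out.

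The 2 genes called overall became 29 with DESeq2, 4 with quality weights, 0 with at least 1 CPM in 3 libraries or a minimum count of 50, and 1 with RLE or upper-quartile factors, library totals, no filter, limma-voom or the replicate block, and 0 to 5 with a library left out. The cause was not tested. With the longest transcript C1qc was at 1130 CPM per kb in KO and 1343 in WT. Other scalings moved the median of all genes by at most 0.004 (log2).

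Deviations from the group means were weakly and negatively correlated between same-numbered libraries (r = -0.0574, -0.0941 and -0.109 over 12136 genes). Between libraries of different number r was 0.0151 to 0.0798. Deviations around a mean of 3 libraries depend on each other, so these values cannot settle whether the number marks a pairing. With the replicate block 0 of the 8 genes were called, and 1 C1q chain had an unadjusted p under 0.05.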
